A study of Mus musculus with 9 samples.

Results

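The endosomal nucleic acid sensing Toll-like receptors (TLRs) Tlr3, Tlr7, Tlr8, Tlr9 and Tlr13 were examined together with the genes of 3 proteins that carry or fold them, Unc93b1, Cnpy3 and Hsp90b1. Members were found by gene name, which gave 8 of the 39179 genes in the deposited count table. All 8 had enough reads to be tested, among 13819 genes tested in all. RNA was sequenced from dendritic cells (DC) of the spleen of C57BL/6J mice in steady state, with no treatment, no transgene and no deletion in any group. The groups were CD8pos cDC1 and CD8neg cDC2, which are the conventional DC subsets, and pDC, the plasmacytoid DC, with 3 libraries each. In the study's methods, wild-type mice were 6 to 12 weeks old. Other sorted cultures of the study used pools of 15 to 17 mice per replicate, while the number pooled for these libraries was not given in the sources used here. Light density spleen cells were depleted with antibodies that included those to CD3, Thy-1, Ly6G/Ly6C and TER-119 and sorted as CD8+ CD11b- cells (cDC1), CD8- CD11b+ cells (cDC2) or CD11c intermediate, CD317 high cells (pDC). Libraries with the same replicate number carried the same date code in their labels in all 3 subsets.

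Endosomal TLRs read nucleic acids that a cell has taken up. TLR3 binds double-stranded RNA, TLR7 and TLR8 bind RNA degradation products and single-stranded RNA, TLR9 binds DNA with unmethylated CpG, and mouse TLR13 recognises a stretch of bacterial ribosomal RNA. The receptors are made in the endoplasmic reticulum, where the chaperone gp96 (Hsp90b1) and its partner CNPY3 help them fold, and UNC93B1 escorts them to endosomes, where proteases cut their ectodomains. TLR3 signals through TRIF and the other members through MyD88. In the spleen, pDC are known for interferon production through TLR7 and TLR9, and cDC1 for uptake of dead cells and cross-presentation.

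Levels are given as TMM-normalised CPM, the reads on a gene per 1000000 reads of its library after scaling by edgeR's TMM factors. Read totals on genes ran from 15806597 to 32453789 per library, so that 3 reads, the floor used here, correspond to 0.0908 to 0.203 CPM, which covers counting error only. Library pairs within a subset were further apart than read sampling allows (chi-square per degree of freedom of 10.6 to 67.7 over genes), and each was counted as a sample. Sums of the cDC1 and pDC marker lists followed the labels, while that of the cDC2 list did so only against cDC1. The 5 cDC1 genes summed to between 3099.7 and 3522 CPM in cDC1 libraries, against 169 to 211 in cDC2 and 526 to 648 in pDC. The pDC list summed to between 9516 and 10687 CPM in pDC and to between 138 and 211 elsewhere. The cDC2 list stood at 1760.2 to 1912 CPM in cDC2 and 94.6 to 158 in cDC1, but at 1838 to 2003 in pDC, where Cd4 alone averaged 1369 CPM against 399 in cDC2. Clec9a and Cd8a of the cDC1 list were also present in pDC. Of the B cell genes, Pax5 stood at no more than 0.405 CPM in any library, Cd79a at no more than 4.11 and Cr2 at no more than 7.84, but Ms4a1 ran from 44.2 to 49.9 CPM in cDC1, from 26.8 to 32.2 in cDC2 and from 0.848 to 1.47 in pDC. T cell genes summed to at most 49.6 CPM (Cd3e at most 0.943) and erythroid genes to between 32.4 and 64.4 CPM. NK cell genes summed to between 23.97 and 158 CPM. Of these, Klrk1 made up 117 to 132 CPM in cDC1, 65.2 to 81.6 in cDC2 and 15.3 to 17.4 in pDC. Ncr1 reached at most 10.4 CPM and Gzma at most 40.7, both in cDC2. The monocyte list stood at 232 to 526 CPM in conventional DC and 2207 to 3047 in pDC, of which Ly6c2 made up 1955 to 2715.

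Promoter windows of RefSeq on GRCm38.p6 are shown for Tlr3, Tlr9 and Hsp90b1, the members whose windows hold a match to a motif searched. They run from 250 bases before to 50 bases after the annotated start, 5′ to 3′ on the gene's strand, and capitals mark motif matches. Windows were in the table for 6 of the 8 members, all but Tlr7 and Unc93b1. The motifs were chosen after these sequences had been seen, so the matches are a description only.
Tlr3, chr8:45410331-45410630, minus strand: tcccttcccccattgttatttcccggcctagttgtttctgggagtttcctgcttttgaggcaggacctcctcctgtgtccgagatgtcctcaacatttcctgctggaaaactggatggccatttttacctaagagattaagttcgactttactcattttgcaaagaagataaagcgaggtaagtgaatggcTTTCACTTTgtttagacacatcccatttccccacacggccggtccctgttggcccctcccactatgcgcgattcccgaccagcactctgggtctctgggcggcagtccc
Tlr9, chr9:106222348-106222647, plus strand: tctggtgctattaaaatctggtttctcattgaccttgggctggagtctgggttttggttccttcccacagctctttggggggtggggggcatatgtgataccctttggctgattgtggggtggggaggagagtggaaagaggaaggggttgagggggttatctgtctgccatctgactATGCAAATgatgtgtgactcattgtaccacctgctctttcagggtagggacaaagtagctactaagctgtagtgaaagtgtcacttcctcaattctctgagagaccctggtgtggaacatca
Hsp90b1, chr10:86705395-86705694, minus strand: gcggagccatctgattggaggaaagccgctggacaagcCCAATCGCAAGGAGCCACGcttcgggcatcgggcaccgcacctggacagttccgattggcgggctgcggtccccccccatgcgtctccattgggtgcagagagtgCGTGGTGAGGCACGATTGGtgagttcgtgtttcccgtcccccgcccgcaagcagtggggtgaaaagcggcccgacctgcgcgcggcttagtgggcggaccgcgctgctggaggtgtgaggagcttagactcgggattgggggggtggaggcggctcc

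All 3 motifs were searched on both strands, with overlapping matches counted. The Tlr3 window holds AAANNGAAA, the core of sites bound by interferon regulatory factors, on its reverse strand at position -59 from the start, and 10.6% of 32851 promoter windows hold it. The octamer ATGCAAAT, bound by POU-domain factors, occurs in the Tlr9 window at position -72 and in 1.74% of windows. The endoplasmic reticulum stress response element, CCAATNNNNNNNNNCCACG, occurs in the Hsp90b1 window at positions -212 and -107, the latter on the reverse strand, and in 0.119% of windows. The windows of Tlr8, Tlr13 and Cnpy3 hold no match to any of the 3, which says only that these letters are not in these windows.

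Between pDC and cDC1, 7 of the 8 members differed past the threshold, an adjusted p below 0.05 (edgeR, quasi-likelihood F test, Benjamini-Hochberg adjustment over all genes tested), against 48.6% of all genes tested. Tlr7, Tlr9, Unc93b1, Cnpy3 and Hsp90b1 were higher in pDC, where 24.3% of all genes were, and Tlr3 and Tlr13 were lower, where 24.4% were. Between pDC and cDC2 all 8 differed, against 45.8% of all genes. The same 5 members were higher in pDC (22.5% of all genes were), and Tlr3, Tlr8 and Tlr13 were lower (23.3%). These comparisons share the pDC libraries. Between the conventional subsets 4 members differed, against 24.4% of all genes: Tlr7 and Tlr8 were higher in cDC2 (12.7%), and Tlr3 and Hsp90b1 were lower (11.7%). Scaling by library size only changed the balance for this last comparison over all genes, from 1760 higher and 1610 lower to 2204 higher and 1287 lower, and moved the median log2 fold change of all genes from 0.027 to 0.14. For pDC vs cDC1 that median moved from 0.018 to 0.11. Of the calls named here, none changed direction under library size only, upper quartile or DESeq2 size factors.

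**Figure D1:**
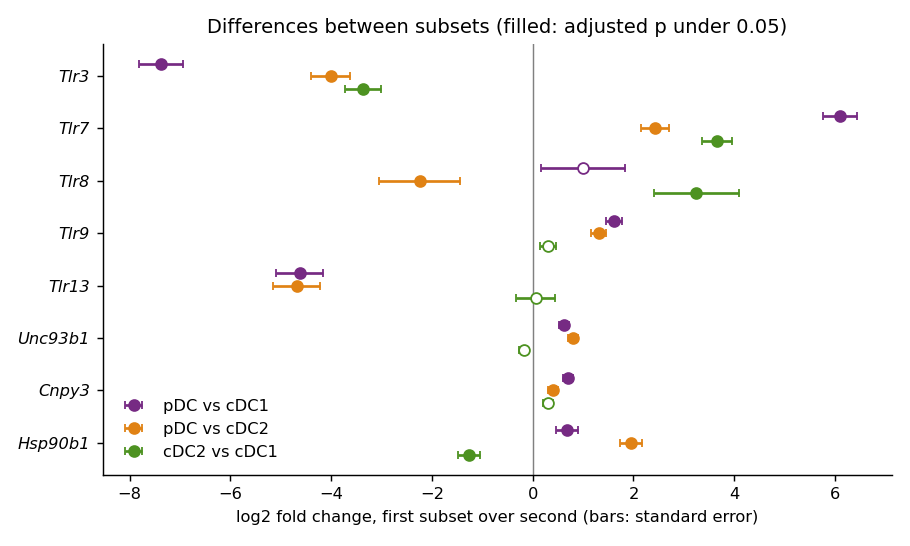
Log2 fold changes of the 8 members in each comparison of subsets (first over second named), with bars for the standard error from edgeR and filled points for an adjusted p under 0.05. Tlr3 against cDC1 in pDC (-7.38) and Tlr7 against cDC1 in pDC (6.10) lie at opposite ends, and the 3 partner genes lie within 2 log2 units of 0 in every comparison.

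Tlr3 (ENSMUSG00000031639; chromosome 8, 45395665 to 45411080, minus strand, GRCm38; 7 exons in the principal transcript, 4 of them coding) was highest in cDC1. Its level was 288, 332 and 344 CPM in cDC1 replicates 1, 2 and 3. In cDC2 the corresponding levels were 21.9, 36.4 and 35.1 CPM. In pDC they were 3.03, 0.710 and 1.77 CPM, from 100, 14 and 30 reads. No library of any subset reached into the range of another, and the levels fell from cDC1 to cDC2 to pDC in each replicate number. The mean of 322 ± 29.5 CPM (SD, n = 3) in cDC1 was 10.3-fold above that in cDC2, a log2 fold change of -3.37 for cDC2 vs cDC1 (standard error 0.352, edgeR adjusted p = 9.94e-05). Against pDC the fitted difference was 167-fold, with a log2 fold change of -7.38 for pDC vs cDC1 (standard error 0.439, edgeR adjusted p = 8.20e-07). For pDC vs cDC2 it was -4.01 (standard error 0.393, edgeR adjusted p = 2.29e-05). The pDC level rested most on replicate 1, without which the log2 fold changes were -8.04 against cDC1 and -4.67 against cDC2. In bulk samples such as these, a smaller share of cells with a transcript and less RNA per cell cannot be told apart.

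The trace of Tlr3 in pDC stood beside traces of other cDC1 genes. Tlr3 in pDC replicates 1, 2 and 3 amounted to 0.941%, 0.221% and 0.550% of its cDC1 mean. For Xcr1, a chemokine receptor of cDC1, those shares were 0.950%, 0.146% and 0.390%, and for the integrin gene Itgae 1.19%, 0.589% and 0.228%. Replicate 1 was highest for all 3 genes. Batf3, a transcription factor that cDC1 depend on, stood at 0.665% to 2.45%. Other genes of the list stood higher in pDC. Clec9a was at 38.8%, 39.9% and 42.2% and Cd8a at 25.1%, 19.1% and 26.4% of their cDC1 means, both highest in replicate 3. In cDC2, Tlr3 reached 6.81%, 11.3% and 10.9% of its cDC1 mean, and Xcr1 3.58%, 6.93% and 5.40%. Clec9a stood at 6.46%, 8.38% and 9.26%, Itgae at 2.24%, 4.95% and 2.30%, Cd8a at 1.44%, 1.72% and 1.26%, and Batf3 at 78.1%, 67.5% and 71.2%. Replicate 1 was lowest for Tlr3, Xcr1, Clec9a and Itgae, but replicate 3 for Cd8a and replicate 2 for Batf3. The part of other cells in the Tlr3 levels of pDC and cDC2 was not tested.

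Tlr7 (ENSMUSG00000044583; chromosome X, 167304929 to 167330558, minus strand; 5 exons, 2 coding) ran the other way. It stood at 384, 382 and 563 CPM in pDC replicates 1, 2 and 3. In cDC2 it stood at 71.1, 70.3 and 105 CPM. In cDC1 it was down to 7.50, 4.003 and 8.06 CPM, from 206, 96 and 119 reads. The order pDC, cDC2, cDC1 held in every replicate number, and no ranges overlapped. The difference of pDC over cDC1 was 68.4-fold (log2 fold change 6.10, standard error 0.331, edgeR adjusted p = 4.76e-07). For pDC over cDC2 it was 5.39-fold (2.43, standard error 0.275, edgeR adjusted p = 6.27e-05), and for cDC2 over cDC1 12.7-fold (3.66, standard error 0.300, edgeR adjusted p = 2.42e-05). Tlr7 in cDC1 replicates 1, 2 and 3 was 1.69%, 0.903% and 1.82% of its pDC mean. Among pDC genes in the same libraries, Klk1 stood at 0.0964% to 0.230% of its pDC mean and Siglech at 0.453% to 0.713%, while Bst2, Ccr9 and Tcf4 lay between 3.18% and 4.29%. The part of pDC RNA in the cDC1 libraries was not tested.

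**Figure D2:**
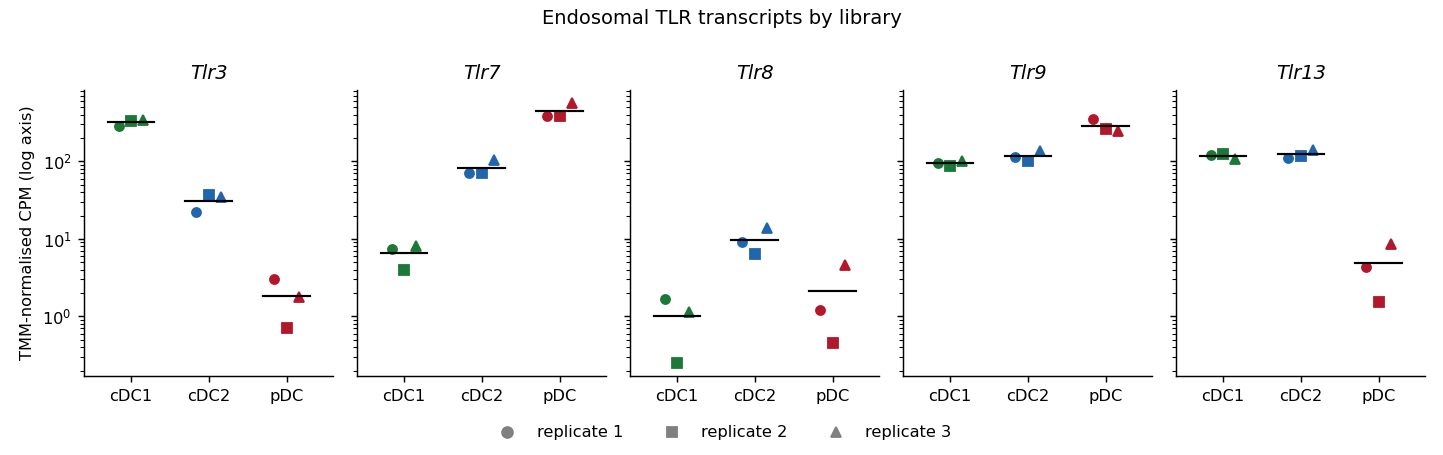
TMM-normalised CPM of the 5 endosomal TLR genes in each library on a log axis, by subset, with marker shapes for the replicate numbers and a line at the mean of 3 libraries. Tlr3 descends from cDC1 to pDC and Tlr7 ascends, Tlr9 and Tlr13 are alike in the conventional subsets, and Tlr8 stays below 15 CPM in every library.

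Tlr8 (ENSMUSG00000040522; chromosome X, 167242696 to 167264329, minus strand; 3 exons, 2 coding) is the neighbour of Tlr7 on the same strand, 40599 bases away, but was low in all subsets. Levels in cDC2 replicates 1, 2 and 3 were 9.05, 6.41 and 14.0 CPM. In cDC1 they were 1.68, 0.2502 and 1.15 CPM, from 46, 6 and 17 reads, and in pDC 1.21, 0.456 and 4.65 CPM, from 40, 9 and 79 reads. Every cDC2 library lay above every library of the other subsets, which overlapped. Tlr8 was higher in cDC2 than in cDC1 (log2 fold change 3.25, standard error 0.844, edgeR adjusted p = 0.0191). It was lower in pDC than in cDC2 (-2.24, standard error 0.798, edgeR adjusted p = 0.0431). For pDC vs cDC1 the value was 1.00 (standard error 0.831, edgeR adjusted p = 0.352), and it turned to -0.24 without pDC replicate 3.

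Both Tlr8 calls rested on few reads. The call for cDC2 vs cDC1 was lost without cDC1 replicate 2, cDC1 replicate 3 or cDC2 replicate 3 (edgeR adjusted p = 0.0581, 0.0585 and 0.0585), with log2 fold changes of 2.77, 3.29 and 2.88. The call for pDC vs cDC2 was lost without cDC1 replicate 3, each of cDC2 replicates 1, 2 and 3, or pDC replicates 1 and 2 (edgeR adjusted p = 0.0554, 0.0838, 0.0553, 0.120, 0.128 and 0.0930), with log2 fold changes of -2.26, -2.29, -2.48, -1.91, -1.95 and -1.78. Without pDC replicate 3 it was -3.48 and past the threshold. With the replicate number as a block, both were past the threshold (edgeR adjusted p = 0.00156 and 0.00284).

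Within each subset, the library with the least Tlr8 also held the least RNA of macrophage genes. Of 6 macrophage markers, 5 were in the table and none of them was at 0 (Adgre1 was not among the genes analysed here). Their summed level was 138, 80.7 and 102 CPM in cDC1 replicates 1, 2 and 3, 282, 132 and 225 in cDC2, and 116, 23.1 and 140 in pDC. Replicate 2 was lowest in each subset, as it was for Tlr8. Neutrophil genes moved the same way, summing to 25.5, 7.30 and 33.5 CPM in cDC1, 46.9, 26.2 and 66.9 in cDC2, and 43.5, 4.97 and 58.9 in pDC, with Ly6g itself at no more than 0.319 CPM. Erythroid sums too were lowest in replicate 2 of every subset (cDC1 37.4, cDC2 39.9, pDC 32.4 CPM), so the low point was not particular to macrophage genes. The B cell, T cell, NK cell and monocyte sums did not share it in every subset. High points could differ: in cDC2, Tlr8 peaked in replicate 3 but the macrophage sum in replicate 1. Among the macrophage markers in cDC1, Vcam1 was lowest in replicate 3 (56.7 CPM), the others in replicate 2. The part of any of these cells in Tlr8 was not tested.

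**Figure D3:**
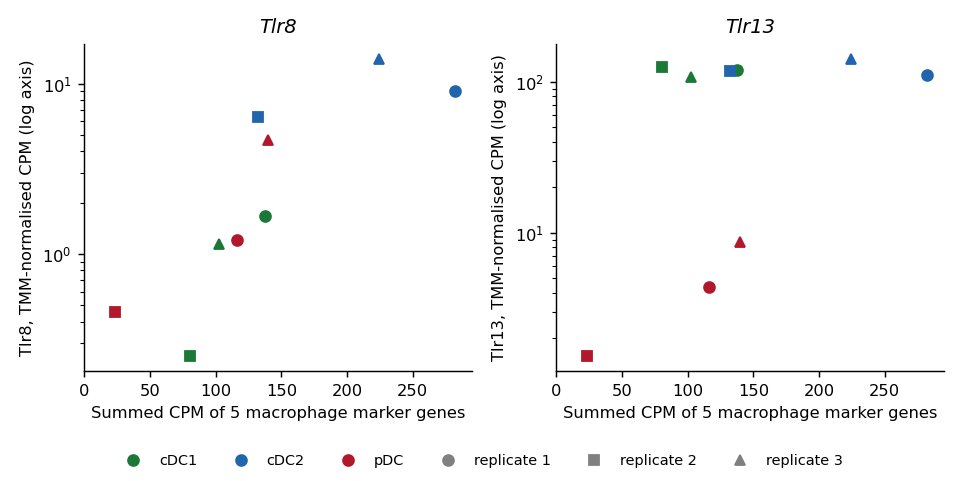
Tlr8 (left) and Tlr13 (right) in TMM-normalised CPM on log axes against the summed CPM of 5 macrophage marker genes, with 1 point per library, colours for subsets and shapes for replicate numbers. In the Tlr8 panel, replicate 2 of each subset is lowest on both axes, and in the Tlr13 panel this holds for pDC, while Tlr13 in conventional DC stays between 108 and 142 CPM across marker sums of 80.7 to 282.

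Tlr9 (ENSMUSG00000045322; chromosome 9, 106222598 to 106226883, plus strand; 2 exons, both coding) was present in every subset. Its level was 348, 264 and 248 CPM in pDC replicates 1, 2 and 3. In cDC1 it was 94.8, 86.3 and 101.5 CPM, and in cDC2 112, 101 and 134 CPM. The lowest pDC library was above all conventional libraries, while cDC1 and cDC2 overlapped, with cDC2 above cDC1 in each replicate number. The mean of 287 ± 53.8 CPM (SD, n = 3) in pDC was 3.04-fold above that in cDC1 (log2 fold change 1.61, standard error 0.157, edgeR adjusted p = 2.02e-05). It was 2.47-fold above that in cDC2 (1.31, standard error 0.156, edgeR adjusted p = 8.91e-05). For cDC2 vs cDC1 the log2 fold change was 0.30 (standard error 0.154, edgeR adjusted p = 0.206), and it missed the threshold under all 18 alternatives.

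Tlr13 (ENSMUSG00000033777; chromosome X, 106143204 to 106160493, plus strand; 3 exons, 2 coding) separated conventional DC from pDC. It stood at 120, 125 and 108 CPM in cDC1 replicates 1, 2 and 3. In cDC2 it stood at 110, 117 and 142 CPM. In pDC it was at 4.36, 1.52 and 8.66 CPM, from 144, 30 and 147 reads. All 6 conventional libraries were far above the pDC libraries, and cDC1 and cDC2 overlapped. The log2 fold change was -4.62 for pDC vs cDC1 (standard error 0.465, edgeR adjusted p = 2.44e-05) and -4.69 for pDC vs cDC2 (standard error 0.467, edgeR adjusted p = 2.58e-05). Without pDC replicate 3, the highest of the pDC libraries, these were -5.26 and -5.32. For cDC2 vs cDC1 the value was 0.063 (standard error 0.389, edgeR adjusted p = 0.938). Within pDC the order of the replicates was that of the macrophage sum, lowest in replicate 2 and highest in replicate 3. The NK cell, monocyte, neutrophil and erythroid sums had this order in pDC too, while the B cell and T cell sums did not. The part of any of these cells in the pDC level of Tlr13 was not tested.

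Compared per length, the receptors made up a different mixture in each subset. Levels per kilobase of exon (CPM per kb) can be set beside each other between genes. In cDC1, Tlr3 stood first at 61.8 ± 5.66 CPM per kb (SD, n = 3), followed by Tlr13 at 27.4 ± 2.08 and Tlr9 at 27.1 ± 2.19, whose libraries overlapped. Tlr7 at 1.60 ± 0.539 and Tlr8 at 0.286 ± 0.201 were far below. The order in cDC2 was Tlr9 at 33.3 ± 4.78 CPM per kb, Tlr13 at 28.6 ± 3.805, Tlr7 at 20.1 ± 4.87, Tlr3 at 5.98 ± 1.54 and Tlr8 at 2.74 ± 1.07. There Tlr9 overlapped with Tlr13, and Tlr13 with Tlr7. In pDC, Tlr7 stood at 109 ± 25.5 CPM per kb and Tlr9 at 82.4 ± 15.5, which overlapped. Tlr13 at 1.13 ± 0.835, Tlr8 at 0.588 ± 0.624 and Tlr3 at 0.352 ± 0.223 overlapped at the low end. With the longest transcript as the length, the order was the same in each subset.

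As shares of the summed per-length TLR level of a library, Tlr3 made up 49.1% to 53.9% in cDC1, 5.12% to 8.48% in cDC2 and 0.0801% to 0.296% in pDC. Tlr7 went from 0.826% to 1.63% in cDC1 through 20.9% to 23.9% in cDC2 to 48.0% to 64.8% in pDC. Tlr9 held a large share everywhere, at 20.9% to 24.2% in cDC1, 35.4% to 39.3% in cDC2 and 33.5% to 51.0% in pDC. Tlr13 held 20.5% to 24.7% in cDC1 and 30.5% to 33.1% in cDC2, and at most 0.945% in pDC. Thus 3 receptors shared most of the sum in each conventional subset, while Tlr7 and Tlr9 averaged 55.9% and 43.0% of it in pDC.

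**Figure D4:**
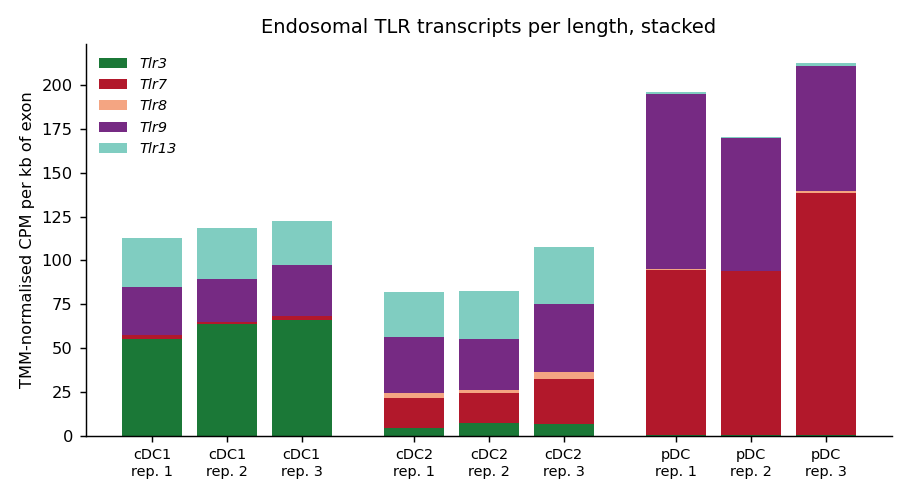
Endosomal TLR transcripts in TMM-normalised CPM per kb of exon, stacked for each of the 9 libraries. The cDC1 stacks are led by Tlr3, the cDC2 stacks by Tlr9, Tlr13 and Tlr7, and the pDC stacks, which sum to between 170 and 213, consist almost wholly of Tlr7 and Tlr9.

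Tlr9 was set against Tlr7 within each library as the ratio of their reads, which no scaling between libraries can change. This ratio leaves out the RNA sensors Tlr3, Tlr8 and Tlr13, so it is not a balance of DNA to RNA sensors. In cDC1, Tlr3 and Tlr13 averaged 52.2% and 23.2% of the summed per-length TLR level, beside 22.9% for Tlr9. The ratio of Tlr9 to Tlr7 was 12.6, 21.6 and 12.6 in cDC1 replicates 1, 2 and 3. In cDC2 it was 1.58, 1.44 and 1.27, and in pDC 0.906, 0.692 and 0.440. The subsets did not overlap. A two-sided exact permutation test of the difference among the 3 subsets returned p = 0.00357, which is the lowest value attainable with 1680 arrangements of 9 libraries. With arrangements only within replicate numbers (a replicate block), the exact permutation p was 0.0278, likewise the lowest value attainable with its 216 arrangements. Per length, the ratio ran from 14.8 to 25.3 in cDC1, 1.496 to 1.85 in cDC2 and 0.516 to 1.06 in pDC.

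Unc93b1 (ENSMUSG00000036908; chromosome 19, 3935186 to 3949340, plus strand; 11 coding exons), which escorts all 5 receptors to endosomes, was abundant in every subset. It stood at 1408, 1542 and 1609 CPM in pDC replicates 1, 2 and 3. In cDC1 it stood at 957, 933 and 1089 CPM, and in cDC2 at 852, 831 and 943 CPM. The pDC libraries were above all others, and cDC2 lay below cDC1 in each replicate number although their ranges overlapped. The log2 fold change was 0.61 for pDC vs cDC1 (1.53-fold, standard error 0.0975, edgeR adjusted p = 0.000549). For pDC vs cDC2 it was 0.80 (1.74-fold, standard error 0.0977, edgeR adjusted p = 0.000108). Between cDC2 and cDC1 it was -0.18 (standard error 0.0971, edgeR adjusted p = 0.224), and fitted with the replicate block it passed (edgeR adjusted p = 0.0324).

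The summed per-length level of the 5 receptors was 118 ± 4.97 CPM per kb (SD, n = 3) in cDC1, 90.8 ± 14.8 in cDC2 and 193 ± 21.5 in pDC. Unc93b1 averaged 328, 289 and 501 CPM per kb in the same order. Its level per unit of summed transcript of these 5 receptors was 2.59 to 2.93 in cDC1, 2.89 to 3.43 in cDC2 and 2.37 to 2.99 in pDC. With exon length, these ranges overlap between each pair of subsets. With the longest transcript as the length, Unc93b1 averaged 438, 386 and 671 CPM per kb in cDC1, cDC2 and pDC. The overlap depends on this choice of length and is stated for exon length only. Tlr12, which also needs UNC93B1, and its partner Tlr11 were not in the sum. Tlr11 averaged 164, 16.6 and 0.935 CPM per kb in cDC1, cDC2 and pDC, and Tlr12 61.3, 5.94 and 64.0. The overlap therefore holds for the 5 members and for exon length only.

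Cnpy3 (ENSMUSG00000023973; chromosome 17, 46735705 to 46752214, minus strand; 6 coding exons) encodes the co-chaperone of gp96 for TLR folding. Its levels were 261, 275 and 254 CPM in pDC replicates 1, 2 and 3, 220, 197 and 182 in cDC2, and 169, 162 and 156 in cDC1. The 3 ranges did not overlap. Cnpy3 was higher in pDC than in cDC1 (log2 fold change 0.70, standard error 0.0980, edgeR adjusted p = 0.000244) and than in cDC2 (0.40, standard error 0.0976, edgeR adjusted p = 0.00768). The step from cDC1 to cDC2 was 0.30 (standard error 0.0977, edgeR adjusted p = 0.0511), just outside the threshold. With the replicate block it was past it (edgeR adjusted p = 0.00852), as it was without cDC2 replicate 3 or pDC replicate 3 (edgeR adjusted p = 0.0496 and 0.0499), and in all it passed under 7 of 18 alternatives.

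Hsp90b1 (ENSMUSG00000020048; chromosome 10, 86690209 to 86705509, minus strand; 18 coding exons), the gene of gp96, was highest in pDC and lowest in cDC2. It stood at 2062, 2336 and 1535 CPM in pDC replicates 1, 2 and 3. In cDC1 it stood at 1346, 1450.4 and 903 CPM, and in cDC2 at 531, 591 and 413 CPM. Replicate 3 was lowest in every subset, and it also had the fewest reads in each. Hsp90b1 was 3.87-fold higher in pDC than in cDC2 (log2 fold change 1.95, standard error 0.220, edgeR adjusted p = 6.17e-05). It was 2.41-fold lower in cDC2 than in cDC1 (-1.27, standard error 0.216, edgeR adjusted p = 0.00202). For pDC vs cDC1 the log2 fold change was 0.68 (standard error 0.214, edgeR adjusted p = 0.0240), and this call was lost without cDC1 replicate 3, pDC replicate 1 or pDC replicate 2 (0.46, 0.65 and 0.52, with edgeR adjusted p = 0.0906, 0.0637 and 0.100). Within replicate numbers the difference held, since pDC stood above cDC1 in all 3, and the block gave an edgeR adjusted p = 8.87e-06.

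**Figure D5:**
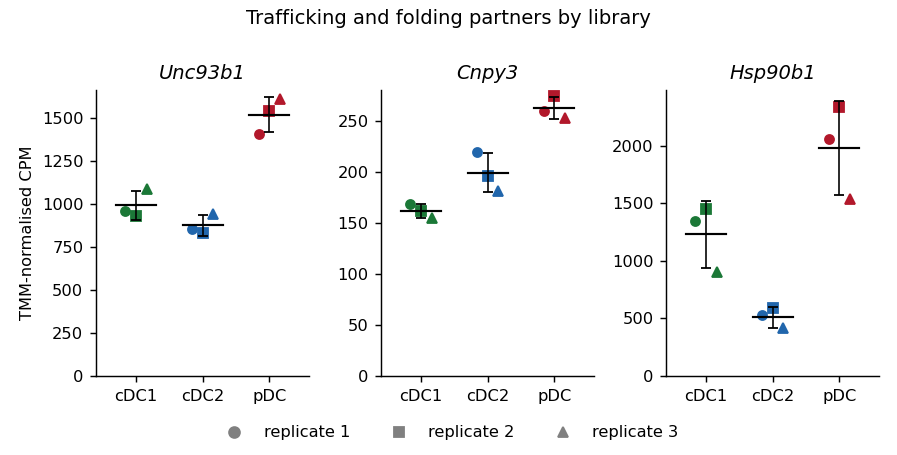
TMM-normalised CPM of Unc93b1, Cnpy3 and Hsp90b1 in each library by subset, with a line and bars for the mean and SD of 3 libraries and shapes for replicate numbers. The pDC libraries are highest for all 3 genes, and replicate 3 of Hsp90b1 is lowest in each subset (903, 413 and 1535 CPM in cDC1, cDC2 and pDC).

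Reads of 2 members could in part belong to other genes. In the annotation, 7.32% of the exon bases of Tlr3 are overlapped by the antisense gene Gm45542, whose count was not analysed here. For Hsp90b1, 15.7% of exon bases are overlapped by other genes. These are 1810014B01Rik on the opposite strand, with 32 to 130 reads per library, and Gm15344 and Gm25745 on the same strand, with at most 27 reads and 0 reads. The libraries were stranded, but whether counting used the strand was not given in the sources used here. The other 6 members overlap no annotated gene and share no 75-base window with another gene's transcripts.

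The genes whose levels followed those of the receptors most closely were ranked by Pearson correlation of log2(CPM + 1) over the 9 libraries among 8291 genes, as a description in which the points share subsets and sorts. For Tlr3 these were Tlr11 (r = 0.998), Dbn1 (0.998) and Ifi205 (0.997). Tlr11, an endosomal receptor for a protozoan protein, averaged 538 CPM in cDC1, 54.3 CPM in cDC2 and 3.06 CPM in pDC. For Tlr7 they were Cd79b (0.999), Cybb (0.998) and Lmo2 (0.996). Cybb, the catalytic subunit of the phagocyte NADPH oxidase, averaged 125 CPM in cDC1, 649 CPM in cDC2 and 2109 CPM in pDC. Tlr9 was followed by Trmt2b (0.991), Xrcc6 (0.989) and Elmod3 (0.988), none of which exceeded a mean of 79.8 CPM in pDC. Tlr13 was followed by Melk (0.998), Ncaph (0.997) and Hnrnpll (0.997). Melk and Ncaph, genes of dividing cells, averaged 34.4 and 43.4 CPM in cDC1, 39.4 and 47.3 in cDC2, and 2.24 and 3.14 in pDC.

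Beyond the members, 64 genes of the endosomal TLR pathway were listed by role, and 62 could be tested (Ctsk and Ager had at most 6 and 13 reads in a library). Between pDC and cDC1, 35 of 62 differed, 22 higher and 13 lower in pDC (24.3% and 24.4% of all genes). Between pDC and cDC2 these counts were again 35, 22 and 13 (22.5% of all genes were higher and 23.3% lower). Between cDC2 and cDC1 they were 32, 17 higher and 15 lower in cDC2 (12.7% and 11.7% of all genes). The share called was above that of all genes in each comparison (48.6%, 45.8% and 24.4%), as a description without a test of the lists. The median log2 fold changes of the listed genes were 0.15, 0.046 and 0.026, beside 0.018, -0.0088 and 0.027 over all genes.

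Receptor-cleaving and lysosomal proteases stood out in pDC. All 5 that were tested were higher in pDC than in cDC1 (24.3% of all genes were), with a median log2 fold change of 1.91. Against cDC2, 3 were higher in pDC (22.5% of all genes were). Ctsl, encoding cathepsin L, averaged 2415 ± 35.8 CPM (SD, n = 3) in pDC, against 19.3 ± 5.58 in cDC2 and 10.7 ± 3.06 in cDC1, with log2 fold changes of 7.81 and 6.97 for pDC over cDC1 and cDC2 (edgeR adjusted p = 8.25e-08 and 1.57e-07). Ctsb averaged 5391 ± 289 CPM in pDC, 795 ± 108 in cDC2 and 775 ± 60.4 in cDC1. Its log2 fold changes for pDC were 2.80 and 2.76 (edgeR adjusted p = 1.19e-07 and 1.57e-07). Lgmn, the asparagine endopeptidase, did not follow this order: it averaged 152 ± 17.9 CPM in cDC2, 144 ± 21.3 in pDC and 78.9 ± 12.04 in cDC1. It was higher in cDC2 than in cDC1 (log2 fold change 0.95, edgeR adjusted p = 0.00163). In the same comparison 4 of the 5 proteases were higher, beside 12.7% of all genes. Among them was Ctsl (0.84, edgeR adjusted p = 0.0310), whose ranges overlapped. Its call was lost without cDC1 replicate 2 or 3 or cDC2 replicate 1 or 3 (adjusted p = 0.0968, 0.0893, 0.122 and 0.102), by limma-voom (adjusted p = 0.0541) and in a fit of the 6 conventional libraries (adjusted p = 0.0644). Fitted with the replicate block it was past the threshold (edgeR adjusted p = 0.00433).

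The endosomal transporters and their adaptor had the order of Tlr7. Slc15a3 and Slc15a4 carry histidine and oligopeptides out of endolysosomes, and 5430427O19Rik encodes TASL, which binds SLC15A4 and recruits IRF5. All 3 were higher in pDC than in either conventional subset and higher in cDC2 than in cDC1. The shares of all genes called in these directions were 24.3% (pDC over cDC1), 22.5% (pDC over cDC2) and 12.7% (cDC2 over cDC1). Slc15a3 averaged 111 ± 7.07 CPM in pDC, 47.7 ± 3.996 in cDC2 and 15.2 ± 4.70 in cDC1 (log2 fold change 2.87 for pDC vs cDC1, edgeR adjusted p = 2.47e-06). Slc15a4 averaged 228 ± 16.9, 157 ± 28.1 and 51.4 ± 4.40 CPM (2.15, edgeR adjusted p = 1.87e-06). For 5430427O19Rik the means were 41.2 ± 2.14, 15.5 ± 1.61 and 8.92 ± 3.25 CPM (2.22, edgeR adjusted p = 3.38e-05).

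Among genes that supply or dispose of nucleic acid ligands, 9 of 12 differed between pDC and cDC1, 7 of them higher in pDC. Of all genes, 48.6% differed and 24.3% were higher in pDC. Dnase1l3, a secreted DNase that degrades DNA in vesicles and chromatin of dead cells, was lower in pDC. It averaged 2355 ± 126 CPM in cDC1 but 995 ± 103 in cDC2 and 71.0 ± 21.3 in pDC, a log2 fold change of -5.05 for pDC vs cDC1 (edgeR adjusted p = 1.37e-07). Grn, whose product granulin carries CpG DNA to TLR9, averaged 3581 ± 183 CPM in pDC, 635 ± 121 in cDC1 and 340 ± 53.8 in cDC2 (log2 fold changes of 2.49 over cDC1 and 3.40 over cDC2, edgeR adjusted p = 1.18e-06 and 2.38e-07). Between pDC and cDC2, 8 of 12 differed, 6 of them higher in pDC (45.8% and 22.5% of all genes). In the conventional subsets 6 of 12 differed, 2 higher and 4 lower in cDC2 (24.4%, 12.7% and 11.7% of all genes). Pld3, an endolysosomal exonuclease of single strands, was higher in cDC2 (1.64, edgeR adjusted p = 0.00652), and Rnaset2b, an acid ribonuclease gene with a near copy, Rnaset2a, was lower (-1.35, edgeR adjusted p = 0.00338). Reads of that pair may have been split between them.

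Of 12 transport genes, 3 were called for pDC vs cDC1, pDC vs cDC2 and cDC2 vs cDC1 each, beside 48.6%, 45.8% and 24.4% of all genes. With the replicate block 7, 5 and 8 were, beside 58.6%, 55.5% and 35.6% of all genes. Hps4 and Ap3s1 were lower in pDC than in cDC1 (log2 fold changes -0.63 and -1.42, edgeR adjusted p = 0.0249 and 0.0319). The call of Hps4 was lost without cDC1 replicate 2 or 3 or pDC replicate 1 or 2 (adjusted p = 0.0608, 0.0510, 0.0831 and 0.0710), and that of Ap3s1 without cDC1 replicate 3, pDC replicate 1 or pDC replicate 2 (adjusted p = 0.116, 0.103 and 0.0897). With the replicate block both were past the threshold (edgeR adjusted p = 0.00437 and 4.29e-05), and both genes were lower in pDC in all 3 replicate numbers. Ap3d1, the delta subunit of the AP-3 adaptor complex, was higher in pDC than in cDC2 (0.75, edgeR adjusted p = 0.0224), a call lost without cDC2 replicate 3, pDC replicate 1 or pDC replicate 2 (adjusted p = 0.0849, 0.0636 and 0.0741) and past the threshold with the replicate block (edgeR adjusted p = 3.56e-05). Lrrc59, an endoplasmic reticulum protein, was also higher in pDC than in cDC2 (0.72, edgeR adjusted p = 0.000513). Hps4 was lower and Ap3s2 higher in cDC2 than in cDC1 (-1.01 and 0.57, edgeR adjusted p = 0.00466 and 0.00365).

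Among 14 adaptors, kinases and interferon regulatory factors (IRFs), 5, 6 and 5 differed for pDC vs cDC1, pDC vs cDC2 and cDC2 vs cDC1, beside 48.6%, 45.8% and 24.4% of all genes. With the replicate block 6, 10 and 8 did, beside 58.6%, 55.5% and 35.6% of all genes. Irf7, the IRF of interferon induction downstream of TLR7 and TLR9, averaged 523 ± 90.6 CPM in pDC, 136 ± 34.7 in cDC1 and 128 ± 38.9 in cDC2 (log2 fold changes 1.94 and 2.03 for pDC, edgeR adjusted p = 0.000124 and 0.000101). Irf5 ran from 453 ± 32.8 CPM in cDC1 through 297 ± 14.2 in cDC2 to 225 ± 12.4 in pDC (-1.01 for pDC vs cDC1, edgeR adjusted p = 1.42e-05). Irak3, an inhibitor of MyD88 signalling, was highest in cDC2, at 3.98 ± 0.548 CPM against 0.786 ± 0.431 in cDC1 and 1.25 ± 0.669 in pDC. It was higher in cDC2 than in cDC1 (2.35, edgeR adjusted p = 0.0140, and 0.0556 without cDC2 replicate 1) and lower in pDC than in cDC2 (-1.67, edgeR adjusted p = 0.0321). The latter call was lost without cDC2 replicate 1, 2 or 3 or pDC replicate 1 or 2 (adjusted p = 0.100, 0.0611, 0.0570, 0.0842 and 0.0935). With the replicate block both were past the threshold (edgeR adjusted p = 0.00359 and 0.00916). Traf3 was higher in cDC2 than in cDC1 (1.06, edgeR adjusted p = 0.0386), a call lost without cDC1 replicate 1 or 3, cDC2 replicate 1 or 2 or pDC replicate 1 (adjusted p = 0.0721, 0.109, 0.102, 0.141 and 0.0570) and past the threshold with the replicate block (edgeR adjusted p = 7.54e-05). The macrophage sum was also highest in a cDC2 library (282 CPM), and the part of those cells in Irak3 was not tested.

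Of the 7 other TLRs, 4, 6 and 5 differed for pDC vs cDC1, pDC vs cDC2 and cDC2 vs cDC1, beside 48.6%, 45.8% and 24.4% of all genes. Tlr1, a partner of TLR2 at the cell surface, was highest in cDC2, at 125 ± 11.1 CPM against 11.5 ± 2.26 in cDC1 and 2.22 ± 1.02 in pDC (log2 fold change 3.43 for cDC2 vs cDC1 and -5.78 for pDC vs cDC2, edgeR adjusted p = 2.57e-05 and 5.72e-07). Tlr11 was lower in pDC than in cDC1 by a log2 fold change of -7.39 (edgeR adjusted p = 2.05e-06), or -8.24 without pDC replicate 1, close to the -7.38 of Tlr3. Tlr12, which pairs with TLR11 and also needs UNC93B1, averaged 195 ± 22.7 CPM in cDC1 and 203 ± 13.9 in pDC, and 18.9 ± 1.53 in cDC2. It was lower in cDC2 than in cDC1 (-3.36, edgeR adjusted p = 6.00e-07) and did not share the pDC trough of Tlr3 and Tlr11.

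Of 9 relatives of the chaperones, 6 differed in each comparison, beside 48.6%, 45.8% and 24.4% of all genes for pDC vs cDC1, pDC vs cDC2 and cDC2 vs cDC1. Cnpy2, of the family of Cnpy3, averaged 99.6 ± 5.88 CPM in pDC, 47.5 ± 6.97 in cDC1 and 38.7 ± 7.66 in cDC2 (log2 fold changes 1.07 and 1.37 for pDC, edgeR adjusted p = 0.000356 and 7.87e-05). Pdia4, a disulfide isomerase of the endoplasmic reticulum, had the order of Hsp90b1, at 276 ± 29.7 CPM in pDC, 193 ± 15.7 in cDC1 and 85.3 ± 1.70 in cDC2. Calreticulin (Calr) was instead highest in cDC1, at 1890.4 ± 140 CPM against 1292 ± 119 in pDC and 989 ± 59.7 in cDC2. Trap1, the mitochondrial member of the Hsp90 family, was highest in cDC1 too, at 133 ± 1.48 CPM against 70.3 ± 5.59 in cDC2 and 61.9 ± 6.99 in pDC (-1.10 for pDC vs cDC1, edgeR adjusted p = 2.65e-05). The 5 that were lower in cDC2 than in cDC1 (11.7% of all genes were) included Pdia4 and Calr (-1.18 and -0.93, edgeR adjusted p = 4.47e-05 and 0.000114), the direction of Hsp90b1.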

How the data were processed

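Stranded libraries of polyadenylated RNA (TruSeq) from sorted spleen DC gave single reads of 75 bases. The authors deposited raw counts of reads per gene, without normalization, and every column of counts was used (0 left out). The submitters' processing notes name STAR, SAMtools, MultiQC, featureCounts and the build mm10. Versions, annotation and strand setting are not given in the sources used here. The study's analysis was done in Degust, with no statistical method named.

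The fits used edgeR 4.0.16 under R 4.3.3. The filterByExpr function (minimum count 10) chose the genes tested, and libraries were scaled by TMM. All 9 libraries were fitted with the subset as the only term, since the study names no block, with the quasi-likelihood test, Benjamini-Hochberg adjustment over all genes tested and a threshold of 0.05. Standard errors were the log2 fold change over the square root of the F statistic. Groups and replicate numbers came from the labels. Pairing rests on the date code that a replicate number shares across subsets, and the deviations of such libraries from the mean of their subset were correlated (9 pairs, correlations across genes of 0.266 to 0.543). The labels do not state that replicates came from separate animals, so p-values measure the spread between these libraries. Exon lengths and positions were read from the GENCODE M21 annotation (GRCm38), which holds 37607 of the 39179 identifiers.

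The members and gene lists were chosen with earlier results of these data known. Named were all members and, from each pathway list and comparison, up to 2 genes past the threshold with the largest change, provided the higher subset averaged at least 100 counts. Genes most like Tlr3, Tlr7, Tlr9 and Tlr13 were the 3 with the highest correlation among genes averaging at least 10 CPM, without Gm and Rik genes. The scripts were tested on simulated data. Alternatives were the replicate block, DESeq2 1.42.0, limma-voom (limma 3.58.1), 3 other scalings, other filters, the 6 libraries compared, a minimum log2 change of 1, and each library left out. The alternatives for pathway genes, for counts by direction and for Tlr3 in pDC were added after the data were seen. Plots were made in matplotlib 3.10.9 (Python 3.11.15). A marker gene and the sum of its list are not reported here.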

Additional observations from a re-analysis of the deposited data

How the results depend on the processing

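Of the members' log2 fold changes under the alternatives, 406 kept their direction and their side of the threshold, 12 lost the threshold, 8 gained it and 3 changed sign, none of the 3 a called difference. For the named pathway genes 727 were unchanged in this sense and 27 lost the threshold. A minimum log2 change of 1 in either direction left 4 members for pDC vs cDC1, with 2 higher in pDC, and 3 members higher in pDC than in cDC2. It left 21, 20 and 14 pathway genes for pDC vs cDC1, pDC vs cDC2 and cDC2 vs cDC1. The share of all genes past this stricter limit is not given here, so these counts cannot be read against it. With each library left out in turn, Tlr8 for pDC vs cDC1 ranged from -0.24 to 1.64 and Tlr13 for cDC2 vs cDC1 from -0.077 to 0.13, and between 1 and 3 members were called higher in cDC2 than in cDC1. The exact permutation p of the Tlr9 to Tlr7 ratio was 0.0667 without replicate 1, 2 or 3, the smallest that 2 libraries per subset allow. With the replicate number as a block, 7, 8 and 6 members were called in the 3 comparisons, against 7, 8 and 4 without it, while the share of all genes called rose from 48.6%, 45.8% and 24.4% to 58.6%, 55.5% and 35.6%. The ratio gave p = 0.0278 by exact permutation within replicate numbers, the lowest value attainable in that test. The block changed no other member's call than those of Unc93b1 and Cnpy3 between the conventional subsets. With at least 10 counts in every library, Tlr8 was not tested. Low counts of Tlr3, Tlr8 and Tlr13 in pDC and of Tlr7 and Tlr8 in cDC1 set the limit of precision there, with as few as 6 reads.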
